A study of Mus musculus with 12 samples.

Results

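The genes described here are 9 that handle copper or bind it: the metallothioneins Mt1, Mt2 and Mt3, the copper importer Slc31a1, the copper pump Atp7a, the copper chaperones Atox1 and Ccs, and the copper enzymes Sod1 and Cp. They were chosen by symbol for these roles, since cuprizone chelates copper. The rule used no measured value, although earlier results of these data were known when the genes were chosen. All 9 of the 9 symbols were among the 15584 genes of the expression table, and all 9 were among the 13759 genes tested, which had at least 1 FPKM in at least 3 of the 12 libraries. FPKM divides the fragments of a gene by its transcript length and by the library size, so levels of different genes can be set side by side.

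The RNA came from mouse corpus callosum, the large white matter tract between the hemispheres. There were 4 groups of 3 libraries: wild-type mice without cuprizone (WT Ctrl), wild-type mice given cuprizone (WT CPZ), and mice whose microglia lack the aryl hydrocarbon receptor, likewise without and with cuprizone (AHR CKO Ctrl and AHR CKO CPZ). Fed cuprizone kills oligodendrocytes, strips the corpus callosum of myelin and is followed by a rise of astrocytes and microglia there. The sources used here do not state the Cre line that deletes the receptor, the strain, age or sex of the mice, how much cuprizone they had and for how long, or whether animals were pooled. They also do not say that replicates are different animals, so p-values measure only the spread between these libraries, which may be technical.

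Metallothioneins are small cysteine-rich proteins that hold zinc and copper. Mt1 and Mt2 are made by astrocytes and many other cells and are switched on by metals through the metal sensor MTF1, and also by glucocorticoids and oxidative stress, whereas Mt3 is a brain form that responds little to metals. Copper enters cells through Slc31a1. Atox1 hands it to Atp7a, which loads secreted enzymes and pumps copper out, and Ccs hands it to the cytosolic superoxide dismutase Sod1. Cp, ceruloplasmin, is a copper-containing ferroxidase made in the brain by astrocytes and choroid plexus.

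Mt1, Mt2 and Mt3 lie in 1 cluster on chromosome 8 of GRCm38, all on the plus strand: Mt3 at 94152607 to 94154146, Mt2 at 94172664 to 94173568 and Mt1 at 94179082 to 94180327. The sequences of the Mt1 and Mt2 promoters are shown for 2 reasons. These genes had the largest fitted differences with cuprizone of the 9 in log2(FPKM + 1). In windows of 300 bases, described below, they also hold the most copies of the sensor's motif among the genes examined. By ratio of mean FPKM, Cp stood above Mt1 in AHR CKO, at 1.8-fold against 1.68-fold. The sequences are the 250 bases before the RefSeq start on the plus strand of GRCm38.p6, chr8:94178839-94179088 for Mt1 and chr8:94172368-94172617 for Mt2. Capitals mark the core of the metal response element, the site bound by MTF1, searched as TGCACNC or TGCGCNC on both strands (reverse complements GNGTGCA and GNGCGCA).
Mt1: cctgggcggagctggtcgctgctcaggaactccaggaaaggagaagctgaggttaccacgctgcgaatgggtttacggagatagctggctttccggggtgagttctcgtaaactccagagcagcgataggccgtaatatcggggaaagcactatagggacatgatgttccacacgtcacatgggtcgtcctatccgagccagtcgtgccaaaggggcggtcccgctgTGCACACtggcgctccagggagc
Mt2: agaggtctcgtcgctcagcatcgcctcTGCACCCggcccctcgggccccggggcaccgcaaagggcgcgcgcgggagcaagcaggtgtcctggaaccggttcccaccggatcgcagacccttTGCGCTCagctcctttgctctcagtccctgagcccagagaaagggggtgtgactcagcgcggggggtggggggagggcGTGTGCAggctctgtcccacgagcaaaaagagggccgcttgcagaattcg
In the full windows of 300 bases, which add 50 bases after the start, Mt1 held 3 cores, Mt2 held 4, Mt3 held 1 and Atp7a held 2, and the windows of Cp, Slc31a1, Atox1 and Sod1 held 0. Before the RefSeq start alone Mt1 held 1 core, Mt2 held 3, Mt3 held 0 and Atp7a held 2, so there Atp7a held more than Mt1. These counts depend on the start taken. For Mt2 the bases before the RefSeq start end at 94172617, ahead of the gene start at 94172664 given above. The Mt2 core at base 5 after the RefSeq start therefore also lies before that gene start. Which starts are used in this tissue was not examined, so the counts do not rank the promoters. The wider window was taken after the narrower one had been counted, and the motif was chosen with these genes in mind. Of 32851 RefSeq windows of the same length, 25.7% held at least 1 core, 1.97% at least 3 and 0.517% at least 4. A window was found for 8 of the 9 genes, Ccs being the other. A match is a description of letters and not evidence of binding.

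Totals per library ran from 447156 to 519470 FPKM. They were 451091 to 472073 in WT Ctrl and 447156 to 467946 in WT CPZ. In AHR CKO Ctrl they were 458842 to 503383, and in AHR CKO CPZ 484502 to 519470, above every WT library. The number of fragments is not in the table, and was put roughly at 11400000 to 14900000 per library from the smallest steps in the values of 9 to 31 genes per library, which gives about 1282 to 6514 fragments for Mt2 and 79 to 236 for Atp7a, the least abundant of the 9. Ahr itself was at 1.78 ± 0.385 FPKM in WT Ctrl and 1.76 ± 0.332 in AHR CKO Ctrl (SD, n = 3 each), and its level averaged over treatments differed between genotypes by 0.005 on the log2 scale (limma, adjusted p = 0.98), so in this whole tissue the table gives no check of the genotype labels. The summed level of 10 oligodendrocyte markers was 10180 to 18520 FPKM in WT Ctrl, beside 2772 to 3232 for 10 neuron markers. All 10 oligodendrocyte markers were above 0 in every library. At most 94 of the 15584 genes were at 0 in any library, so this does not identify the tissue. The genes at 0 were uneven between libraries: 94 in WT CPZ replicate 2, 52 to 80 in each AHR CKO library and 0 in every other WT library. The cause of this unevenness was not tested. Markers of choroid plexus, a tissue that borders the ventricles, were uneven between libraries. Their sum over 10 genes was 44.2 to 157 FPKM in WT Ctrl, 57.9 to 3006 in WT CPZ, 418 to 3610 in AHR CKO Ctrl and 1014 to 3755 in AHR CKO CPZ. Most of this sum was 1 gene, Ttr (transthyretin), at 40.1 to 144 FPKM in WT Ctrl, 54.3 to 2919 in WT CPZ, 406 to 3497 in AHR CKO Ctrl and 993 to 3688 in AHR CKO CPZ. The sum of the other 9 markers ran from 4.09 to 13.2, from 3.62 to 86.8, from 12.6 to 112 and from 21.4 to 66.9 FPKM in the same groups.

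In untreated wild-type tissue the 9 genes spanned a wide range of level. Mt1 was highest at 672 ± 116 FPKM, ahead of Mt3 at 566 ± 42.5, Sod1 at 398 ± 29.9 and Mt2 at 267 ± 67.4. Atox1 stood at 86.1 ± 10.9, Ccs at 16.3 ± 3.64, Slc31a1 at 7.38 ± 0.314, Cp at 3.61 ± 0.36 and Atp7a at 2.32 ± 0.54 (SD, n = 3 for each). Mt1 lay at the 99.7th percentile of all genes in the table and Atp7a at the 25.0th. The WT Ctrl ranges of Mt1, 601 to 805, and Mt3, 522 to 607, overlapped, so their order was not separated by the spread, and the other neighbours in the order did not overlap.

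**Figure D1:**
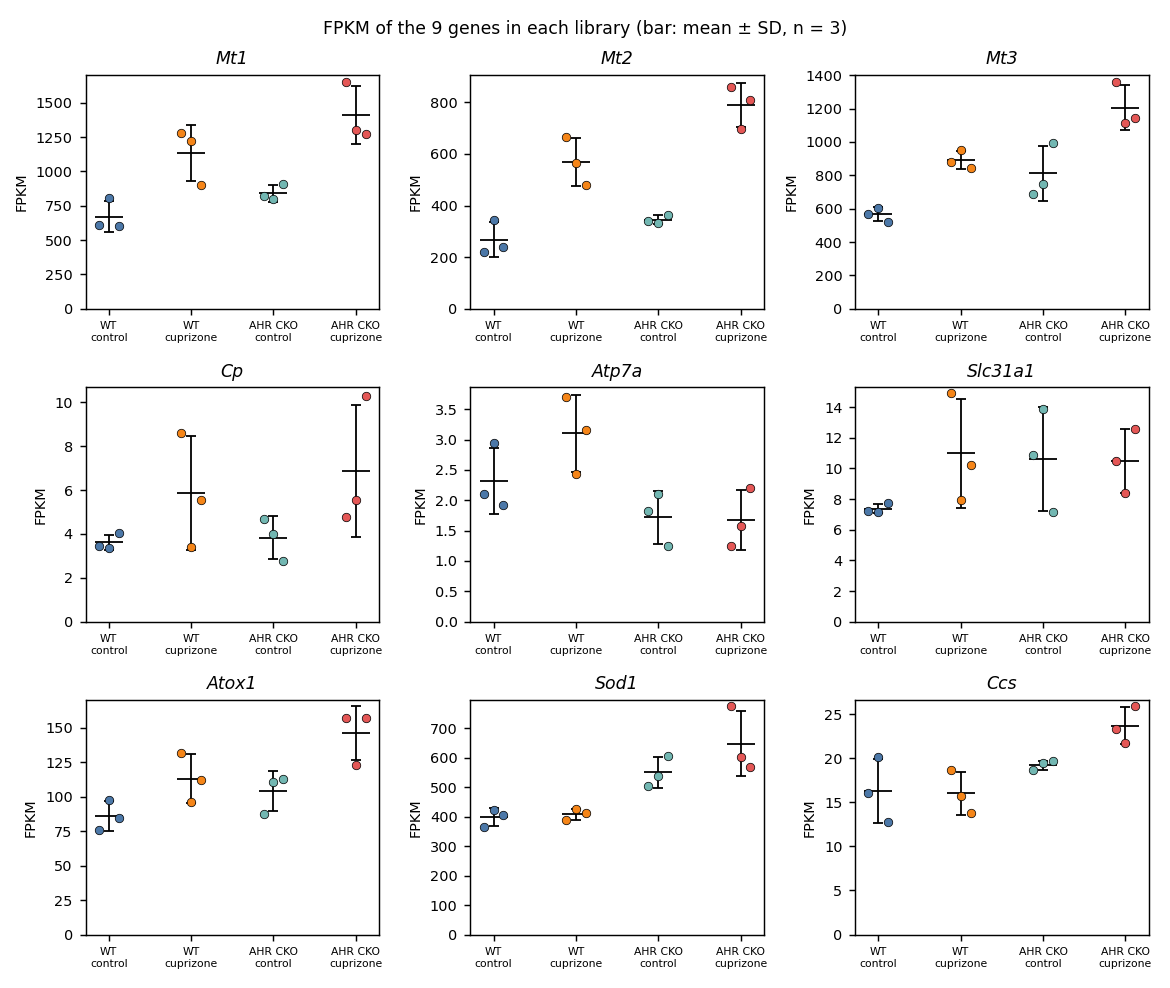
Level of each of the 9 genes in every library (FPKM, points, each axis from 0) with the mean and SD of each group (bar, n = 3) for WT control, WT cuprizone, AHR CKO control and AHR CKO cuprizone. Mt1, Mt2 and Mt3 sit higher with cuprizone in both genotypes, and Sod1 sits higher in all 6 AHR CKO libraries than in all 6 WT libraries.

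All 3 metallothioneins rose with cuprizone in both genotypes, and of the 9 genes Mt2 had the largest fitted difference in each. Mt2 was 220, 345 and 238 FPKM in the 3 WT Ctrl libraries and 666, 565 and 479 in the 3 WT CPZ libraries, 2.13-fold higher in the mean. In mice with receptor-deficient microglia Mt2 was 342, 331 and 364 without cuprizone and 861, 695 and 810 with it, 2.28-fold higher. Every cuprizone library stood above every control library of its genotype. The fitted differences in log2(FPKM + 1) were 1.10 with a standard error of 0.169 in WT (limma, adjusted p = 0.000629) and 1.18 in AHR CKO (adjusted p = 0.000655).

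Mt1, the neighbouring isoform with the higher level, was 609, 805 and 601 FPKM in WT Ctrl and 1282, 1222 and 905 in WT CPZ, 1.69-fold higher. In AHR CKO it was 818, 796 and 910 without cuprizone and 1651, 1302 and 1276 with it, 1.68-fold higher. The groups did not overlap in either genotype, and the log2 differences were 0.75 (standard error 0.168, adjusted p = 0.00808) and 0.74 (adjusted p = 0.0149) in limma.

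Mt3, the brain isoform, was 568, 607 and 522 FPKM in WT Ctrl and 882, 953 and 844 in WT CPZ, 1.58-fold higher. In AHR CKO it was 690, 746 and 995 without cuprizone and 1362, 1115 and 1141 with it, 1.49-fold higher. The groups again did not overlap, and AHR CKO Ctrl replicate 3 stood nearest to the cuprizone libraries. The log2 differences were 0.66 (standard error 0.145, adjusted p = 0.00741) in WT and 0.58 (adjusted p = 0.0231) in AHR CKO in limma.

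So 3 of the 9 genes passed the test upward in WT and 3 of 9 in AHR CKO, and 0 passed downward. Of all genes tested, 9.08% passed upward and 7.81% downward in WT (16.9% in all), and 7.22% upward and 2.98% downward in AHR CKO (10.2% in all). Among the 144 tested genes with transcripts under 600 nt, the class of the metallothioneins, 15.3% passed upward in each genotype. The median log2 difference of the 9 was 0.484 in WT and 0.488 in AHR CKO, against -0.036 and -0.014 over all genes tested. Groups that did not overlap, with cuprizone higher, were seen for 4 of 9 in WT against 15.8% of all genes, and for 6 of 9 in AHR CKO against 14.3%. The difference between the genotypes in the cuprizone effect was -0.02 for Mt1 (95% interval -0.54 to 0.50), 0.08 for Mt2 (-0.44 to 0.60) and -0.07 for Mt3 (-0.52 to 0.37) on the log2 scale. Of all genes, 0.0363% passed this interaction test, and 0 of the 9 did (limma; 0 of the 9 at an unadjusted p under 0.05).

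The Mt2 calls in both genotypes, and those of Mt1 and Mt3 in WT, held when any 1 library was left out. In AHR CKO the Mt1 call was not reached without control replicate 1 (adjusted p = 0.0579), control replicate 2 (0.0664) or cuprizone replicate 1 (0.0515), and the Mt3 call was not reached without those same libraries (0.109, 0.101 and 0.0741). Astrocytes make metallothioneins, and the sum of 10 astrocyte markers was 1627 ± 89.1 FPKM in WT Ctrl against 2876 ± 277 in WT CPZ, and 1529 ± 15.9 against 2618 ± 337 in AHR CKO (SD, n = 3), with 4 of the 10 called higher in each genotype and 1 lower in WT. Much of that difference was Gfap, which marks reactive astrocytes, at 185 ± 57.8 against 1083 ± 169 FPKM in WT and 161 ± 8.92 against 1001 ± 275 in AHR CKO, and the median log2 difference of the 10 was 0.33 in WT and 0.17 in AHR CKO. The sum of 10 microglia markers was 308 against 1170 in WT and 267 against 856 in AHR CKO, and that of 10 oligodendrocyte markers 14513 against 3497 and 10142 against 4693. The part of these shifts in the rise of the metallothioneins was not tested, and in whole tissue more cells of a type and more RNA per cell cannot be told apart.

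**Figure D2:**
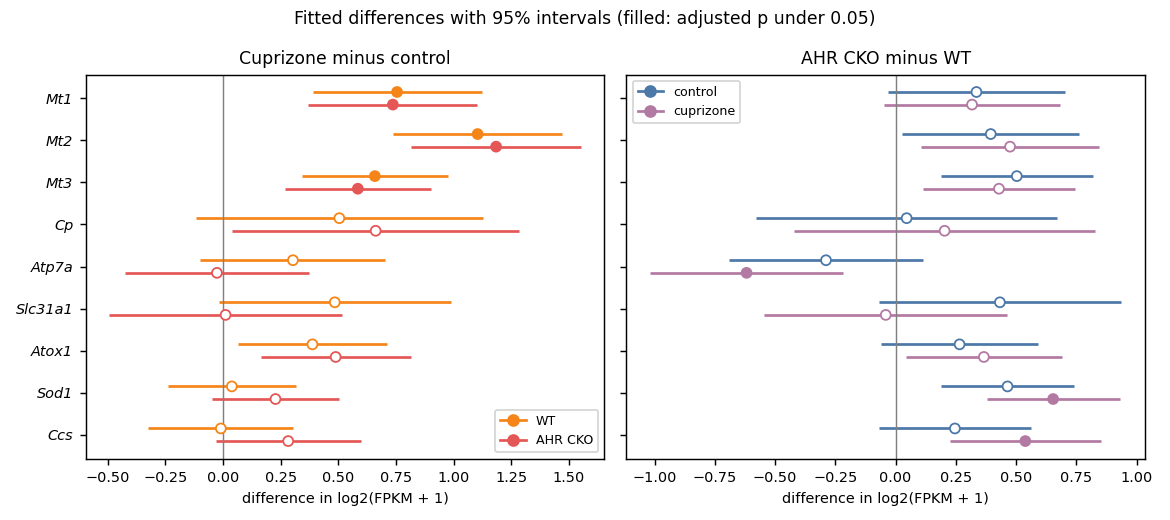
Fitted differences in log2(FPKM + 1) with 95% intervals for the 9 genes, cuprizone minus control by genotype on the left and AHR CKO minus WT by treatment on the right. Filled points have an adjusted p under 0.05 in limma: Mt1, Mt2 and Mt3 on the left in both genotypes, and Sod1, Ccs and Atp7a on the right under cuprizone.

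Mt2 gained on Mt1 within each library. The ratio of Mt2 to Mt1 was 0.361, 0.428 and 0.396 in WT Ctrl and 0.519, 0.463 and 0.529 in WT CPZ. In AHR CKO it was 0.418, 0.415 and 0.4 without cuprizone and 0.522, 0.534 and 0.634 with it. All 6 cuprizone libraries had a ratio above all 6 control libraries, and the ratio was 1.32-fold higher over both genotypes. An exact two-sided permutation test within genotype over 400 assignments gave p = 0.005, the smallest these groups can give, and 0.02 after adjustment over the 4 ratios tested. The ratios were taken after the values of Mt1 and Mt2 had been seen, so this p is not independent support. The ratio of Mt3 to Mt1 missed the threshold (exact permutation p = 0.21, adjusted 0.28). The longest identical stretch between the Mt1 and Mt2 transcripts is 20 nt, and none of the 50-base stretches of either transcript occurs in another annotated transcript, so few reads can be shared between these copies. Mt2 overlaps a gene on the opposite strand, Gm45774, and the strand setting of the counting is not known from the sources used here.

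**Figure D3:**
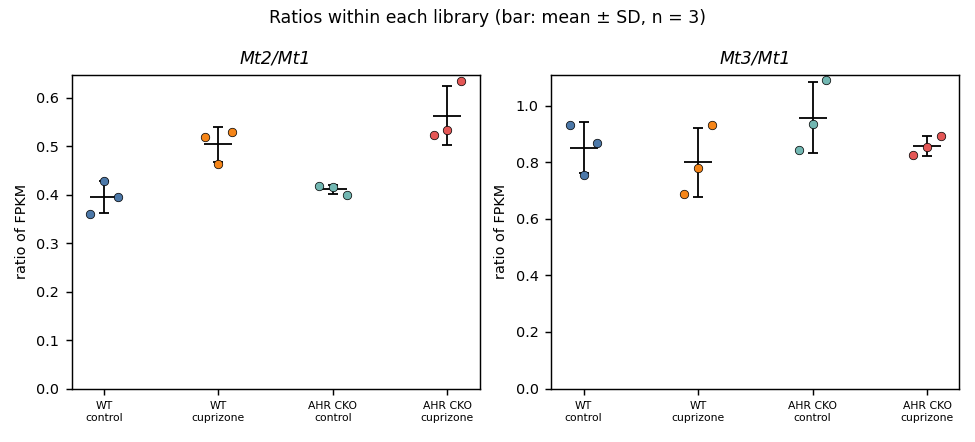
Ratio of Mt2 to Mt1 and of Mt3 to Mt1 in each library (points) with the mean and SD of each group (bar, n = 3). The Mt2 to Mt1 ratio runs from 0.361 to 0.428 in the 6 control libraries and from 0.463 to 0.634 in the 6 cuprizone libraries, while the Mt3 to Mt1 ratios of the groups overlap.

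The importer Slc31a1 was even in untreated wild-type tissue and uneven elsewhere. It was 7.22, 7.17 and 7.74 FPKM in WT Ctrl, 14.9, 7.97 and 10.2 in WT CPZ, 10.9, 13.9 and 7.16 in AHR CKO Ctrl and 10.5, 8.42 and 12.6 in AHR CKO CPZ. The WT groups did not overlap, but the log2 difference of 0.48 did not pass in limma (adjusted p = 0.186), nor did that of 0.01 in AHR CKO (adjusted p = 0.986). The WT value was 0.262 without WT CPZ replicate 1. Under sample quality weights, which called 37.1% and 35.2% of all genes in WT and AHR CKO, the Slc31a1 values were 0.457 (adjusted p = 0.0383) and -0.457 (adjusted p = 0.029), so that the AHR CKO value turned into a call downward. The interaction was -0.47 with a 95% interval of -1.19 to 0.24. It was -0.252 without WT CPZ replicate 1, -0.274 without AHR CKO Ctrl replicate 2 and -0.708 without AHR CKO Ctrl replicate 3, and -0.914 under weights (adjusted p = 0.0147), where 18.6% of all genes passed. Choroid plexus marker sums had the order of Slc31a1 in 2 of the 4 groups. The sums of the 3 WT CPZ libraries were 3006, 57.9 and 993 FPKM, and those of the 3 AHR CKO Ctrl libraries 1902, 3610 and 418, in the same order as Slc31a1 within each of these groups. In AHR CKO CPZ they were 3755, 1014 and 2848, and in WT Ctrl 44.2, 157 and 92.8, and there the library with the highest sum did not have the most Slc31a1. With the marker sum as a covariate, an alternative chosen after the data had been seen, the WT difference in Slc31a1 was 0.061 (adjusted p = 0.857).

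Ceruloplasmin, Cp, varied most between the cuprizone libraries. It was 3.45, 3.36 and 4.02 FPKM in WT Ctrl and 8.58, 3.42 and 5.55 in WT CPZ, and 4.7, 4.0 and 2.76 in AHR CKO Ctrl and 4.75, 5.53 and 10.3 in AHR CKO CPZ. WT CPZ replicate 1 and AHR CKO CPZ replicate 3 were the highest. Cp had the order of the choroid plexus sums in WT CPZ but not in the other groups, and in AHR CKO CPZ the library with the highest sum, 3755 FPKM, had the lowest Cp. The mean was 1.62-fold higher with cuprizone in WT and 1.8-fold in AHR CKO, but neither difference passed in limma (adjusted p = 0.268 and 0.182), nor did their average, 0.58 on the log2 scale (adjusted p = 0.0568). The WT difference of 0.50 was 0.227 without WT CPZ replicate 1 and 0.785 without WT CPZ replicate 2, and the AHR CKO difference of 0.66 was 0.367 without AHR CKO CPZ replicate 3. Under sample quality weights both passed, at 0.55 (adjusted p = 0.0225) and 0.438 (adjusted p = 0.0461). With the choroid plexus sum as a covariate, which has the same limit here, the average was 0.319 (adjusted p = 0.233). By contrast, with the trend of the differences over transcript length and GC content removed the average was 0.641 (adjusted p = 0.0188). The span of Cp overlaps Hps3, and that of Slc31a1 overlaps Cdc26, on the opposite strand.

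**Figure D4:**
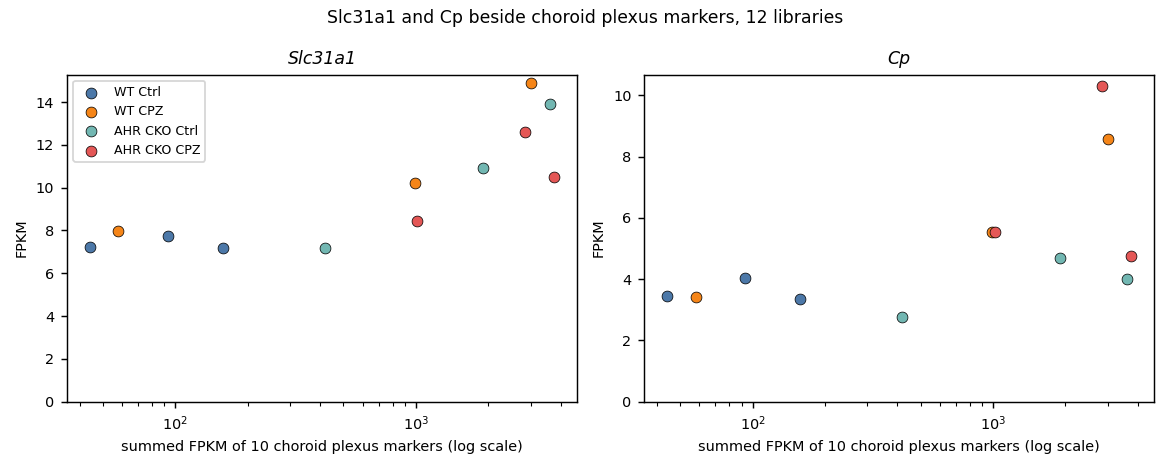
Slc31a1 and Cp (FPKM, vertical axes) against the summed level of 10 choroid plexus markers (FPKM on a log scale, horizontal axes), 1 point per library, coloured by group. The 3 WT control libraries lie at the low left for Slc31a1, between 7.17 and 7.74 FPKM, and WT CPZ replicate 1 has both the highest Slc31a1, 14.9 FPKM, and a marker sum of 3006 FPKM.

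The chaperone Atox1 was 75.8, 97.6 and 84.9 FPKM in WT Ctrl and 132, 96.2 and 112 in WT CPZ, 1.32-fold higher in the mean. In AHR CKO it was 87.3, 111 and 113 without and 157, 123 and 157 with cuprizone, 1.41-fold higher. Neither difference passed alone in limma (adjusted p = 0.101 in WT and 0.0592 in AHR CKO). Averaged over genotypes Atox1 rose by 0.44 on the log2 scale (adjusted p = 0.00958), the fourth of the 9 genes to pass in that comparison after Mt1, Mt2 and Mt3, where 12.1% of all genes passed upward (23.2% in either direction). Among the 144 tested genes with transcripts under 600 nt, the class of Mt1, Mt2, Mt3 and Atox1, 27.1% passed upward there. With the length and GC trend removed the Atox1 value was 0.16 (adjusted p = 0.299), whereas Mt1, Mt2 and Mt3 still passed, at 0.462, 0.841 and 0.364. In AHR CKO alone, removing that trend left Mt2 as the sole call, at 0.841 (adjusted p = 0.00203), with Mt1 at 0.408 (0.0558) and Mt3 at 0.272 (0.0783).

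Neither Sod1 nor its chaperone Ccs passed the test with cuprizone, and both were higher in mice with receptor-deficient microglia under cuprizone. Sod1 was 365, 423 and 405 FPKM in WT Ctrl, 387, 425 and 411 in WT CPZ, 504, 538 and 607 in AHR CKO Ctrl and 774, 601 and 567 in AHR CKO CPZ. All 6 AHR CKO libraries stood above all 6 WT libraries. Under cuprizone Sod1 was 1.59-fold higher in AHR CKO (log2 difference 0.65, standard error 0.127, limma adjusted p = 0.00879), and without cuprizone it was 1.38-fold higher (0.46, adjusted p = 0.051), which missed the threshold. The cuprizone differences were 0.04 in WT (adjusted p = 0.879) and 0.23 in AHR CKO (adjusted p = 0.308). The Sod1 transcript shares 23.14% of its 50-base stretches with the pseudogene Gm8566, and its span overlaps Scaf4 on the opposite strand, so how its reads were assigned is uncertain.

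Ccs was 16, 20.1 and 12.8 FPKM in WT Ctrl and 18.6, 19.4 and 19.7 in AHR CKO Ctrl, with overlapping groups. Under cuprizone it was 18.7, 15.7 and 13.8 in WT and 23.3, 21.7 and 25.9 in AHR CKO, 1.47-fold higher without overlap (log2 difference 0.54, standard error 0.144, limma adjusted p = 0.0246). The Ccs call was not reached without WT CPZ replicate 3 (adjusted p = 0.0904), AHR CKO CPZ replicate 1 (0.0761) or AHR CKO CPZ replicate 3 (0.0553). Nor was it reached when every library was scaled to a common total (TPM; limma, adjusted p = 0.0585). For Ccs itself the cuprizone differences were -0.01 in WT (adjusted p = 0.976) and 0.28 in AHR CKO (adjusted p = 0.26), where its groups did not overlap. The ratio of Ccs to Sod1 with cuprizone against control missed the threshold (exact permutation p = 0.955, adjusted 0.955).

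The copper pump Atp7a was lower, not higher, in AHR CKO under cuprizone. It was 2.11, 2.94 and 1.92 FPKM in WT Ctrl, 3.7, 2.44 and 3.15 in WT CPZ, 1.83, 2.1 and 1.24 in AHR CKO Ctrl and 1.25, 1.58 and 2.21 in AHR CKO CPZ. Under cuprizone the AHR CKO libraries all lay below the WT libraries, and Atp7a was lower in AHR CKO by a log2 difference of -0.62 (standard error 0.184, limma adjusted p = 0.0358). The Atp7a call was not reached without WT CPZ replicate 1 (adjusted p = 0.121), WT CPZ replicate 3 (0.094), AHR CKO CPZ replicate 1 (0.142) or AHR CKO CPZ replicate 2 (0.0889). Its low level, at 79 to 236 estimated fragments per library, limits its precision.

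Between genotypes under cuprizone, 2 of the 9 genes thus passed upward and 1 downward, against 9.14% and 10.8% of all genes tested (20% in either direction). Groups that did not overlap were seen for 4 of 9 upward and 1 of 9 downward, against 18.9% and 20% of all genes. Without cuprizone 0 of 9 passed in limma, against 6.19% of all genes (1.42% upward and 4.76% downward). Groups did not overlap upward there for 2 of 9 against 13.5% of all genes. The smallest adjusted p of the 9 there were those of Sod1 (0.051), Mt3 (0.0581) and Mt2 (0.154). Averaged over treatments, 5 of 9 passed upward and 1 downward, against 14.5% and 19.1% of all genes (33.7% in either direction): Sod1 at 0.56 (adjusted p = 0.00182), Mt3 at 0.47 (0.00632), Mt2 at 0.44 (0.0169), Ccs at 0.39 (0.0134), Atox1 at 0.32 (0.0373) and Atp7a at -0.45 (0.0205) on the log2 scale. The averaged Atp7a call was not reached without AHR CKO Ctrl replicate 3 (adjusted p = 0.0504) or AHR CKO CPZ replicate 1 (0.0515), and that of Atox1 was not reached in 8 of the 12 runs that left out 1 library. The averaged Atox1 call was also not reached with a common total per library (TPM; 0.105), quantile normalization (0.15) or a replicate block (0.0614). Under quantile normalization the averaged Mt2 call was not reached either (0.104).

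Genotype differences varied with transcript length across the whole table. Over all tested genes the median difference averaged over treatments was 0.339 for the 144 genes with transcripts under 600 nt, the class of Mt1, Mt2, Mt3 and Atox1, and 0.295 for those from 600 to below 800 nt, the class of Sod1. It was 0.262 from 800 to below 1200 nt, the class of Ccs, -0.06 from 3000 to below 4500 nt, the class of Cp and Slc31a1, and -0.228 for 4500 nt and over, the class of Atp7a. Of the genes under 600 nt, 40.3% passed upward, and of those of 4500 nt and over, 47.1% passed downward. With the trend over length and GC content removed, Sod1 was the sole call left among the 9, at 0.277 averaged over treatments (adjusted p = 0.0141) and 0.324 under cuprizone (adjusted p = 0.0395). Then Mt2 was at 0.119 (adjusted p = 0.451), Mt3 at 0.03 (0.788), Ccs at 0.102 (0.532) and Atp7a at -0.242 (0.163) in the average. The cuprizone comparisons showed the same slope less steeply, from a median of 0.229 in WT and 0.265 in AHR CKO under 600 nt to -0.083 and -0.133 at 4500 nt and over.

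**Figure D5:**
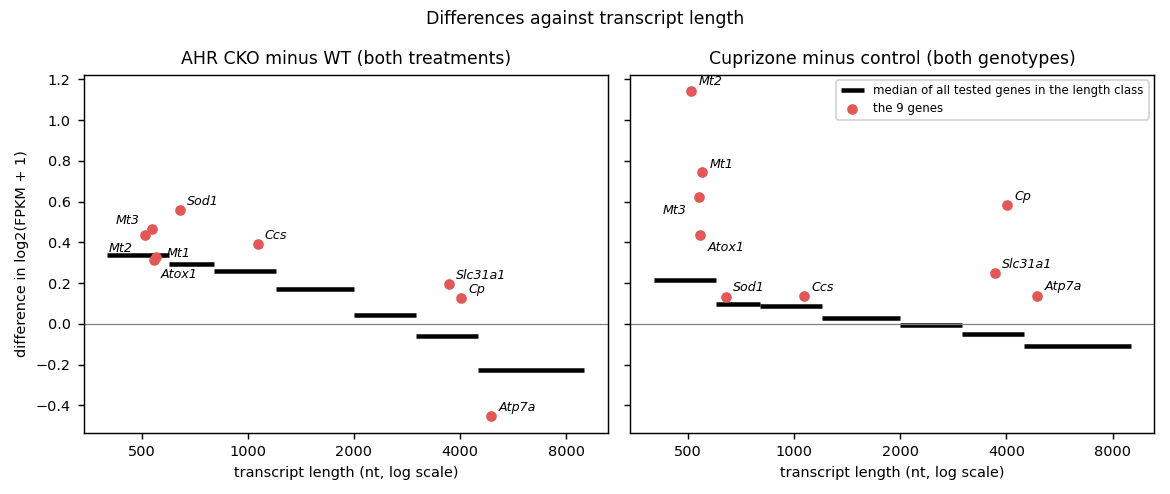
Difference in log2(FPKM + 1) of the 9 genes (points) against transcript length (nt, log scale), AHR CKO minus WT on the left and cuprizone minus control on the right, with the median of all tested genes in 7 length classes (black bars). On the left the medians fall from 0.339 to -0.228 and Mt1 and Atox1 lie close to that of their class, and on the right Mt2, Mt1 and Mt3 lie well above the median of 0.214 for transcripts under 600 nt.

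Other genes of copper traffic passed the test about as often as genes in general. Of 19 genes of copper transport and chaperoning outside the 9, 18 were tested, and 2 passed upward and 2 downward with cuprizone in WT, and 2 and 0 in AHR CKO, with a median log2 difference of 0.06 in each. Over all genes tested 9.08% passed upward and 7.81% downward in WT, and 7.22% and 2.98% in AHR CKO, so the counts of 4 and 2 among 18 stand beside 16.9% and 10.2% of all genes. Prnp, the copper-binding prion protein, rose from 341 ± 13.9 to 465 ± 19.0 FPKM in WT (limma, adjusted p = 0.00219) and from 365 ± 9.15 to 450 ± 12 in AHR CKO (adjusted p = 0.0348; SD, n = 3). Steap3, a metalloreductase, rose from 3.29 to 6.36 FPKM in WT (adjusted p = 0.0062) and from 3.4 to 7.88 in AHR CKO (adjusted p = 0.00247). App, the amyloid precursor protein, which binds copper, fell from 814 to 544 in WT (adjusted p = 0.00115), and Sco1, which delivers copper to cytochrome oxidase, fell from 3.1 to 2.04 there (adjusted p = 0.0357). In AHR CKO App was 718 and 595 (adjusted p = 0.103), and Sco1 2.65 and 2.87 (adjusted p = 0.746).

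Of 16 other copper enzymes and subunits, 13 were in the table and 9 were tested, and 2 of the 9 passed upward in each genotype and 0 downward, beside 9.08% and 7.22% of all genes upward, with medians of 0.12 in WT and 0.03 in AHR CKO. Moxd1, a relative of dopamine beta-hydroxylase, rose from 3.67 ± 0.671 to 16.2 ± 6.6 FPKM in WT (adjusted p = 7.82e-05) and from 3.58 ± 0.515 to 8.88 ± 0.627 in AHR CKO (adjusted p = 0.00445; limma; SD, n = 3). Loxl3, a lysyl oxidase of the extracellular matrix, rose from 1.27 to 2.21 in WT (adjusted p = 0.0341), and was 1.31 and 2.21 in AHR CKO (adjusted p = 0.0658). The secreted superoxide dismutase Sod3 rose from 12.8 to 16.6 in AHR CKO (adjusted p = 0.0471), and was 9.5 and 10.4 in WT (adjusted p = 0.451). Sod3 was also higher in AHR CKO averaged over treatments, by 0.51 on the log2 scale (adjusted p = 0.0014), where 14.5% of all genes passed upward. Its value with the length and GC trend removed was not taken.

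Of 15 zinc transporters and metal sensors tested, 1 passed upward and 1 downward with cuprizone in WT, and 1 and 0 in AHR CKO, with medians of 0.07 and -0.05. The shares over all genes were 16.9% and 10.2%, so these counts are near the background. Slc39a1, a zinc importer, rose from 19.5 ± 1.35 to 33.1 ± 1.15 FPKM in WT (limma, adjusted p = 0.000158) and from 20.3 ± 1.25 to 29.3 ± 3.5 in AHR CKO (adjusted p = 0.00412; SD, n = 3). Slc30a4, which moves zinc into vesicles, fell from 17.8 to 13.8 in WT (adjusted p = 0.0487), and was 14.1 and 11.7 in AHR CKO (adjusted p = 0.182). Mtf1, the metal sensor, and Slc30a1, a zinc exporter that MTF1 also switches on, were named after their values had been seen. Mtf1 was 7.44 ± 0.279 in WT Ctrl and 5.73 ± 0.155 in WT CPZ (adjusted p = 0.0541), and 5.48 ± 0.728 and 4.39 ± 0.536 in AHR CKO (adjusted p = 0.145). Averaged over genotypes its log2 difference with cuprizone was -0.3 (limma, adjusted p = 0.0125), where 23.2% of all genes passed. Mtf1 was also lower in AHR CKO, by -0.33 under cuprizone (0.0481) and by -0.36 averaged over treatments (0.00523), where 20% and 33.7% passed. Slc30a1 was 10.1 ± 1.53 and 7.28 ± 1.05 in WT (adjusted p = 0.0945) and 9.18 ± 1.38 and 8.85 ± 1.68 in AHR CKO (adjusted p = 0.875). The part of MTF1 in the rise of the metallothioneins was not tested.

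Glucocorticoids also raise Mt1 and Mt2 in many tissues. Of 12 glucocorticoid-responsive genes tested, 2 passed upward and 3 downward with cuprizone in WT, and 1 and 1 in AHR CKO, beside 16.9% and 10.2% of all genes in either direction, with medians of -0.14 and -0.34. Cdkn1a, which is also a p53 target, rose from 10.2 to 45.5 FPKM in WT (limma, adjusted p = 1.2e-05) and from 11.9 to 53.9 in AHR CKO (adjusted p = 1.81e-05). Sult1a1, a sulfotransferase, rose from 3.17 to 5.03 in WT (adjusted p = 0.0091). Tsc22d3, which encodes the glucocorticoid-induced leucine zipper, fell from 52.8 to 30.1 in WT (adjusted p = 0.00431), and Arrdc2, an arrestin-domain gene, fell from 9.64 to 3.57 there (adjusted p = 0.00427). In AHR CKO these genes did not pass: Sult1a1 was 3.64 and 4.18 (adjusted p = 0.449), Tsc22d3 54.6 and 39.0 (0.0676) and Arrdc2 11.8 and 6.6 (0.0729).

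The genes whose pattern over the 12 libraries was most like that of each called gene were found by the root-mean-square difference of mean-centred log2(FPKM + 1). For Mt2, whose own root-mean-square deviation was 0.64, they were Fxyd1, a regulator of the sodium pump, at 0.146, the lymphotoxin beta receptor Ltbr at 0.152, Tspan4 at 0.166 and Rhoc at 0.168. For Mt1, with a deviation of 0.443, they included Uap1l1 at 0.139, Rhoc at 0.157 and the ribosomal protein gene Rps18 at 0.163. For Mt3, with a deviation of 0.414, they were Fau at 0.112, Rps18 at 0.114, Wtip at 0.122 and Rplp2 at 0.122, of which Fau, Rps18 and Rplp2 encode ribosomal proteins. For Sod1, with a deviation of 0.316, they were Mif at 0.057, Uqcr10, a subunit of respiratory complex III, at 0.064, Pelo at 0.07 and Clpp at 0.071. Several of these are short transcripts, such as Rps18 at 560 nt, Mif at 544 nt and Uqcr10 at 434 nt, beside 536 nt for Mt3 and 641 nt for Sod1. Others are longer: Uap1l1 at 3349 nt, Ltbr at 2107 nt, Wtip at 1962 nt, Pelo at 1600 nt, Tspan4 at 1466 nt and Rhoc at 1202 nt.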

How the data were processed

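The authors deposited FPKM in 1 table, with a column for each of the 12 libraries beside the gene symbols, per the file headers. RNA was extracted from corpus callosum with a Qiagen RNeasy kit and made into libraries with a SMARTER kit, per the labels' protocols, and the genome build was GRCm38 (mm10) per the submitters' processing notes. Which aligner, quantifier, annotation and strand setting were used is not given in the sources used.

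Values were taken as log2(FPKM + 1). The 13759 genes that reached 1 FPKM in 3 or more libraries were fitted together with limma 3.58.1 in R 4.3.3 (group means, contrasts, eBayes with trend), two-sided, with Benjamini-Hochberg adjustment over all tested genes of each of 7 comparisons and a threshold of 0.05. The procedure was tested on simulated data. Fold values are ratios of mean FPKM, and fitted differences understate the change of low genes. The genes and lists were chosen with earlier results of these data known. Named were all 9 genes, up to 4 genes per list with the smallest adjusted p among those that passed with cuprizone, and the 4 most alike genes of each called gene, of which those of 4 genes are given, with 1 entry not reported here.

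Fragment numbers came from values between 0.05 and 0.12 FPKM times kilobase in genes with 1 transcript over 1500 nt. Lengths and positions are from GENCODE M21, and promoters from RefSeq. Alternatives covered the pseudocount, filter, scaling, weights, prior, replicate block, groups fitted, length and GC content, choroid plexus sum and each left-out library.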

Additional observations from a re-analysis of the deposited data

How the results depend on the processing

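Shares in brackets are those of all genes called under the same setting. Among the 9 genes, the calls with cuprizone in WT were 3 and ranged from 3 to 4 when 1 library was left out (11.6% to 17.7%), with 6 under sample quality weights (37.1%). In AHR CKO the 3 calls ranged from 1 to 4 (6.11% to 11.3%), with 5 under weights (35.2%), 1 of them the fall of Slc31a1, and 1 with the length and GC trend removed (10.8%). Between genotypes without cuprizone the 0 calls ranged from 0 to 2 (0.0291% to 10.4%), with 2 at a mean FPKM of at least 5 (8.68%), 2 with a common total (TPM; 5.82%), 1 under quantile normalization (5.83%) and 3 under weights (32.5%). Between genotypes under cuprizone the 3 calls ranged from 1 to 4 (5.65% to 24%), with 6 under weights (58.4%) and 1 with the trend removed (6.19%). Averaged over treatments the 6 genotype calls ranged from 4 to 7 (24.7% to 36.1%), with 1 with the trend removed (10.6%) and 3 with the choroid plexus covariate (25.8%). The 4 averaged cuprizone calls ranged from 4 to 5 (18.4% to 24.4%). The interaction had 0 calls in every left-out run (0% to 0.749%) and 1, Slc31a1, under weights (18.6%). The causes of these moves were not tested.

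Values changed sign with the length and GC trend removed for Sod1 with cuprizone in AHR CKO (-0.089), for Atox1 between genotypes without cuprizone (-0.064), for Mt1 (-0.082), Mt3 (-0.063) and Atox1 (-0.057) under cuprizone, and for Mt1 (-0.028) and Atox1 (-0.06) in the genotype average. With the choroid plexus covariate, itself unequal between these groups, Slc31a1 (-0.203) and Atox1 (-0.012) changed sign between genotypes without cuprizone. None of these 9 had passed the test except Atox1 in the genotype average. Of 886 alternatives of 38 single-gene results, 793 kept direction and side of the threshold, 45 lost the call, 39 gained one and 9 reversed. Of 20 calls, 10 held under every alternative run for them, the Mt2 to Mt1 ratio among them, whose log2 difference of 0.401 ranged from 0.356 to 0.431 over left-out libraries. Only results with an unadjusted p under 0.1 were followed, a limit set after sign changes had been counted over all of them. Of the 26 not followed, 18 changed sign under at least 1 alternative and 3 passed under at least 1.

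Same-numbered libraries did not deviate together: over 18 such pairs the correlation of deviations ran from -0.343 to 0.25, 3 pairs exceeded 0.1, and 0 libraries were closest to their own number in every other group. With a replicate block the calls numbered 3 with cuprizone in WT, 2 in AHR CKO, 0 and 2 between genotypes without and with cuprizone, 0 for the interaction, 4 for the cuprizone average and 5 for the genotype average. The choroid plexus covariate and the left-out runs of the ratio were chosen after the data had been seen. A further run that left out WT CPZ replicate 1 and AHR CKO CPZ replicate 3 together was dropped because it picked libraries by their Cp level. In it the Mt3 call in AHR CKO and the Atp7a call under cuprizone were not reached, and an averaged Atox1 call stood at about the threshold.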
